A study of Mus musculus with 8 samples.

Results

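Small leucine-rich proteoglycans are a family of secreted proteins of the connective tissue matrix. The 10 genes described here were chosen by name (Dcn, Bgn, Aspn, Lum, Fmod, Prelp, Omd, Kera, Ogn and Chad) out of 22180 genes with a symbol of their own on the array. All 10 were on the array, each read from the probe set with the highest mean signal, and 9 passed a filter on low signals. Chad did not pass and is given as values with no test.

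Hearts were taken from male C57Bl6N mice 1 week after surgery for TAC, transverse aortic constriction, in which the aorta is narrowed so that the left ventricle pumps against a raised pressure. Gene expression was read on Affymetrix arrays, 1 per heart. A group of 4 hearts came from floxed control mice, in which Cited4 is flanked by recombination sites, and a group of 4 came from CITED4 knockout mice. Every heart, control hearts included, had undergone TAC, so the comparison was between genotypes under load and involved no unoperated heart. CITED4 is a co-regulator of transcription that binds CBP/p300. The sources used here do not give the Cre driver, the age of the mice or the part of the heart sampled, nor whether controls carried Cre. Litters are not named in the labels, and p-values reflect only how these 8 samples vary, which may be in part technical.

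Proteins of this family carry a curved domain of leucine-rich repeats with which most of them bind collagen fibrils, and they set how thick and how evenly spaced those fibrils become. Many carry chondroitin, dermatan or keratan sulfate chains, and several also hold growth factors such as TGF-beta in the matrix. In the heart they are made mainly by fibroblasts, and matrix of this kind is laid down when the ventricle is loaded. Textbook classification puts decorin, biglycan and asporin in class I, lumican, fibromodulin, PRELP, osteomodulin and keratocan in class II, osteoglycin in class III and chondroadherin in class IV. In the mouse genome several of the genes lie side by side. With no other protein-coding gene between them, the order was Ecm2, Aspn, Omd, Ogn in one cluster, Dcn, Lum, Kera, Epyc in another and Optc, Prelp, Fmod in another, by the RefSeq gene table of GRCm38.p6.

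The 250 bases before the start site are shown for Aspn, Omd and Ogn, neighbours that ranked the hearts in a like order, and for Fmod, the member whose signal varied most. Sequences are from RefSeq (GRCm38.p6), printed 5′ to 3′ along the gene, and capitals mark matches on either strand to any of 3 patterns. The first is the TATA box, searched as TATAAA. The second is the E-box to which basic helix-loop-helix factors bind, searched as CANNTG. The third is the core of the site that TEAD factors bind, searched as GGAATG. Where such matches overlap, the capitals run together.
Aspn, chr13:49544193-49544442, plus strand: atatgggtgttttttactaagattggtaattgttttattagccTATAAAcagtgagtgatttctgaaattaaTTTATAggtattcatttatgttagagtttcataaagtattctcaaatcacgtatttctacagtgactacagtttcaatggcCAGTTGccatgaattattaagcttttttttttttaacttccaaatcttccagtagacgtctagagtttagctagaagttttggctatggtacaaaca
Omd, chr13:49582212-49582461, plus strand: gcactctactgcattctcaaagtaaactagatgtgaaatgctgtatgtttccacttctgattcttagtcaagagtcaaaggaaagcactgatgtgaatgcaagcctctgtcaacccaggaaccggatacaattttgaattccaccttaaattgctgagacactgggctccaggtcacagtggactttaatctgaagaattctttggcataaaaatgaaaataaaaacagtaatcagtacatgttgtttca
Ogn, chr13:49607765-49608014, plus strand: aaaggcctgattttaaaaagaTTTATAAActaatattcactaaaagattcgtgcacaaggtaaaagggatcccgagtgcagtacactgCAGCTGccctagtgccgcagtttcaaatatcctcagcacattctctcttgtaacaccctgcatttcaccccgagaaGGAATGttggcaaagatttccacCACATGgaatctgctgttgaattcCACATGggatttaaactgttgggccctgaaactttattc
Fmod, chr1:134037004-134037253, plus strand: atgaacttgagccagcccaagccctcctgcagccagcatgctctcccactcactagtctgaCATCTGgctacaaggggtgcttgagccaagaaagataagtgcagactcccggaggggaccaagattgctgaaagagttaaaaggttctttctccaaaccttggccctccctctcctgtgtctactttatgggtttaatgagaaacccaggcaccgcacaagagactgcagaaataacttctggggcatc
The table held entries for 8 of the 10 members, and Dcn and Lum had none. Ogn had matches to all 3 of these letter patterns. Its window held 3 E-boxes, starting 162, 63 and 39 bases before the start site, and 1 GGAATG, 86 bases before it. An E-box was present in 5 of the 8 members and in 66.2% of the 32851 promoter windows of the same length. GGAATG was in 1 of 8 members and 12.6% of all windows, and TATAAA in 3 of 8 and 12.4%. Matches to TATAAA began 229 and 227 bases before the start site in Ogn and 207 and 178 bases before it in Aspn. In Chad, whose window is not shown, the match began 28 bases before it. The Omd window held none of the 3 patterns. Further searches gave CAGAC, a SMAD element, in 2 of 8 members and 42.2% of windows, TGNGGT, a RUNX site, in 5 of 8 and 40.1%, and both TGANTCA (AP-1, 6.75% of windows) and GCCNNNGGC (TFAP2, 13.7%) in 0 of 8. All patterns were searched on both strands. These matches describe letters only, and the window of each gene is that of 1 annotated start.

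Array medians lay between 4.29 and 4.33 (log2 intensity), and arrays correlated at 0.979 to 0.988 over probe sets. The targeted gene matched the labels in every heart: Cited4 was at 5.89, 5.76, 6.05 and 6.22 in control replicates 1 to 4 and at 5.26, 5.15, 4.83 and 5.02 in knockout replicates 1 to 4. Markers of the ventricular cardiomyocyte were present at high signal in all hearts, with troponin T gene Tnnt2 between 12.76 and 12.88. Of the 8 genes of that list, Tnnt2 was the 1 with a higher mean in the knockout, and 7 had a lower one (median difference -0.23, log2). Hearts stood apart in other respects. Knockout replicate 2 had high atrial markers, with a mean of 7.04 (log2) over the 7 tested genes of that list against 4.80 to 5.34 in the other 7 hearts. Activated fibroblast markers were at 8.88 in control replicate 1 and at 7.64 to 7.97 in the other 3 controls.

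The genotypes differed in average level for several members, but no member passed the test. Of the 9 tested, 8 had a higher mean in the knockout and 1, Dcn, a lower one (its sign turned after a further quantile normalization), where 51.2% of the 15086 genes tested had a higher mean in the knockout. The median difference of the 9 was 0.38 (log2), and that of all genes tested was 0.0038. With limma over all genes tested and Benjamini-Hochberg adjustment at 0.05, 0 members were called higher and 0 lower, as were 0% of all genes in either direction. Cited4 itself was not called: it differed by -0.91 ± 0.12 (limma SE, adjusted p = 0.277), with the knockout at 53.1% of control. Its unadjusted p was the smallest of all genes tested. A gene that was not called is therefore not shown to be unchanged. The members with an unadjusted p under 0.05 numbered 2, Bgn and Fmod, both higher, where 5.64% of all genes were higher and 5.61% lower at that level. When limma's moderation of the variances was left out, 0 members were called and 0 had an unadjusted p under 0.05. The control and knockout values overlapped in 9 of 9 members, where 2.33% of all genes were without overlap and higher and 2.90% without overlap and lower. The count of 2 rested on single hearts: it was 6 without control replicate 1 and 5 without knockout replicate 3. Without control replicate 2, control replicate 3, knockout replicate 1 or knockout replicate 4 it was 0, and without control replicate 4 or knockout replicate 2 it was 1. The shares of 5.64% and 5.61% are those of all 8 arrays. They were not counted with a heart left out, so the counts of 6 and 5 have no share over all genes beside them.

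**Figure D1:**
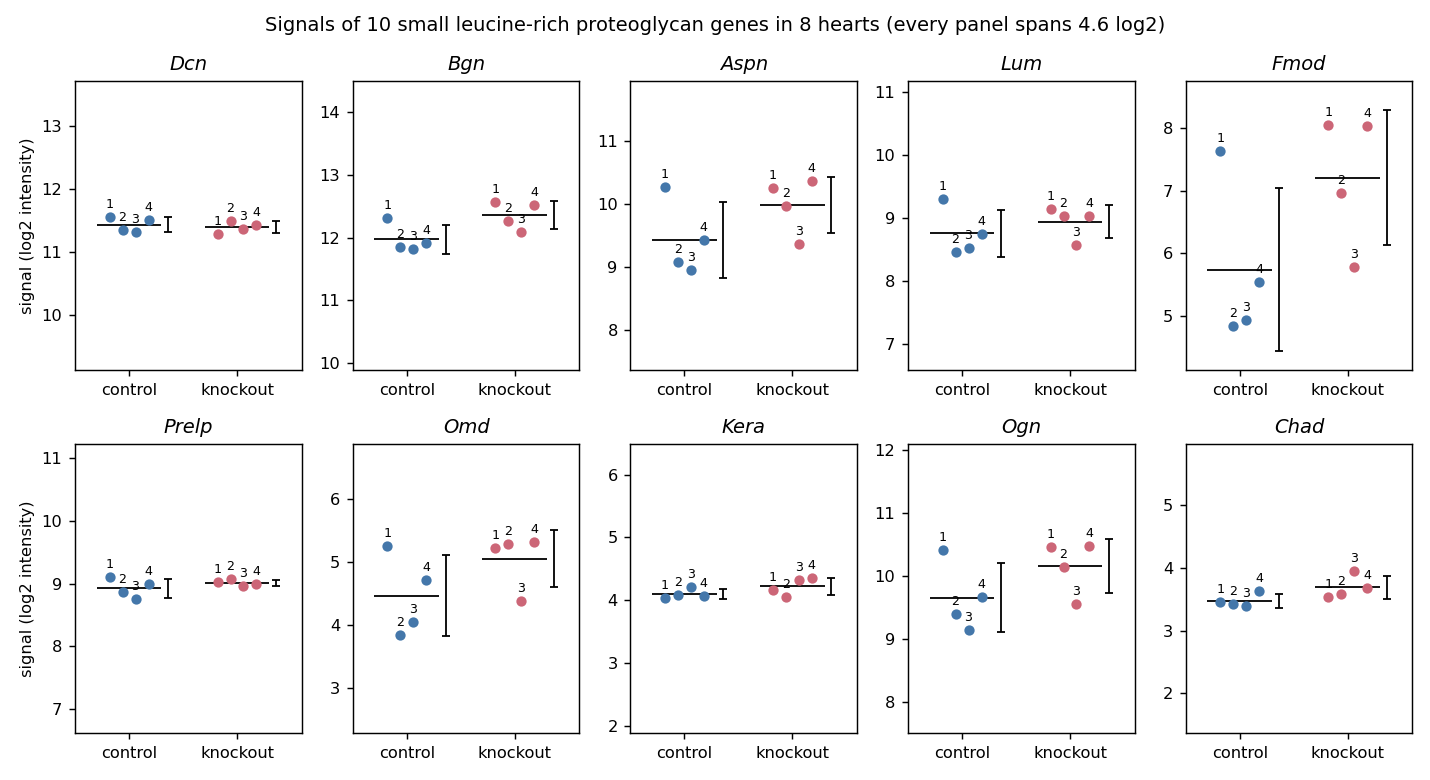
Signal (log2 intensity, vertical axis) of the 10 genes in 4 control hearts (blue) and 4 knockout hearts (red), numbered by replicate; horizontal lines are group means and bars to their right ±1 SD. In Ogn, Aspn, Omd and Lum, control replicate 1 lies among the high knockout hearts and knockout replicate 3 among the lower controls; Fmod spans 3.20 and Dcn, Prelp and Kera span at most 0.35.

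Among class I members, Bgn, which encodes the matrix proteoglycan biglycan, was at 12.32, 11.86, 11.82 and 11.92 in control replicates 1 to 4. In knockout replicates 1 to 4 it was at 12.56, 12.26, 12.09 and 12.51. Each knockout heart was above control replicates 2 to 4, and control replicate 1 lay above knockout replicates 2 and 3. The group means were 11.98 ± 0.23 and 12.36 ± 0.22 (SD, n = 4 each), a difference of 0.38 ± 0.14 (limma SE, 95% interval 0.07 to 0.69) with an adjusted p of 0.421 in limma over all genes. Exact permutation of the genotypes in all 70 ways gave a two-sided p of 0.0857, where 4 against 4 allows no less than 0.0286. With 1 array left out the difference ran from 0.31 to 0.49, and without knockout replicates 1 and 4 together it was 0.20. A second Bgn probe set of lower signal gave 8.23 ± 0.40 and 8.90 ± 0.26 (SD, n = 4 each), a difference of 0.66 ± 0.20 (limma SE, adjusted p = 0.423). The highest signal on the arrays was 13.34, and whether the brighter Bgn probe set was compressed near that limit was not measured.

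Aspn encodes asporin, a collagen-binding protein with an aspartate-rich start that can bind TGF-beta. It was at 10.28, 9.07, 8.95 and 9.43 in control replicates 1 to 4 and at 10.25, 9.97, 9.37 and 10.37 in knockout replicates 1 to 4. Control replicate 1 was the second highest of all 8 hearts, and knockout replicate 3 lay below control replicate 4. The difference was 0.56 ± 0.30 (limma SE, 95% interval -0.10 to 1.22, adjusted p = 0.495; exact two-sided permutation p = 0.229), and with 1 array left out it ran from 0.40 (without control replicate 3) to 0.84 (without control replicate 1). Without knockout replicates 1 and 4 together it was 0.24.

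Dcn encodes decorin, the most studied binder of collagen fibrils and TGF-beta in the family. Its values were 11.56, 11.36, 11.32 and 11.52 in controls and 11.29, 11.50, 11.37 and 11.44 in knockouts, in replicate order. These 8 hearts spanned 0.27 (log2), and 13.5% of the genes tested had a smaller span. Knockout replicate 1, which had the highest Bgn and Fmod, had the lowest Dcn. The difference was -0.04 ± 0.08 (limma SE, 95% interval -0.23 to 0.15, adjusted p = 0.883), and ran from -0.08 without control replicate 3 to -0.0005 without control replicate 1. After a further quantile normalization of the 8 arrays the sign turned, at 0.01.

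In class II, Fmod had the widest spread of the 10 members. It encodes fibromodulin, a keratan sulfate protein that binds collagen and takes part in its cross-linking. Control replicates 1 to 4 were at 7.64, 4.85, 4.95 and 5.54, and knockout replicates 1 to 4 at 8.04, 6.97, 5.78 and 8.03. Knockout replicates 1 and 4 and control replicate 1 were high, control replicates 2 and 3 were low, and the highest heart was 9.16-fold above the lowest. Over the 8 arrays 99.9% of the genes tested had a smaller span. The group means were 5.74 ± 1.30 and 7.20 ± 1.07 (SD, n = 4 each), and the difference of 1.46 ± 0.65 (limma SE, 95% interval 0.01 to 2.92, adjusted p = 0.444; exact two-sided permutation p = 0.114) corresponds to a 2.76-fold ratio. With 1 array left out it ran from 1.16 (without control replicate 2) to 2.09 (without control replicate 1), and without knockout replicates 1 and 4 together it was 0.63. Of the variation of Fmod over the 8 hearts, as summed squared deviations, 33.4% lay between the genotypes and the remainder between hearts of one genotype. A second Fmod probe set at lower signal had its 4 highest values in the same hearts (5.08 in control replicate 1, and 5.38, 5.13 and 5.49 in knockout replicates 1, 2 and 4) and differed by 0.47 ± 0.30 (limma SE, adjusted p = 0.558). Its value in knockout replicate 3, 4.03, was the lowest of all.

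Lum encodes lumican, which carries keratan sulfate in the cornea and organises collagen fibrils in many tissues. In replicate order it was at 9.30, 8.47, 8.53 and 8.74 in controls and at 9.15, 9.04, 8.57 and 9.03 in knockouts. The highest value of the 8 was that of a control heart, replicate 1. The difference of 0.19 ± 0.19 (limma SE, adjusted p = 0.723) was as large as its error, and it was 0.36 without control replicate 1, 0.31 without knockout replicate 3, 0.09 without control replicate 2, 0.11 without control replicate 3 and 0.12 without knockout replicate 1. Lum is the direct neighbour of Dcn in the genome, and its profile over the hearts, each gene taken relative to its own mean, differed from that of Dcn by up to 0.43 in 1 heart (knockout replicate 1).

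Omd, which encodes the bone-rich protein osteomodulin, was a member of low signal. Controls were at 5.26, 3.84, 4.04 and 4.72 and knockouts at 5.23, 5.29, 4.38 and 5.32, in replicate order. Knockout replicate 3 stood apart from the other 3 knockouts, which lay between 5.23 and 5.32, and control replicate 1 lay with those 3. The difference was 0.59 ± 0.31 (limma SE, 95% interval -0.10 to 1.28, adjusted p = 0.495), and with 1 array left out it ran from 0.38 (without control replicate 2) to 0.85 (without control replicate 1). With the low-signal filter raised to the 60th percentile Omd and Kera were no longer tested.

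Prelp and Kera showed narrow spreads. Prelp encodes a basic protein that links basement membrane proteoglycan to collagen, and it was at 9.10, 8.86, 8.75 and 8.99 in controls and at 9.02, 9.07, 8.97 and 8.99 in knockouts. Its knockout SD was 0.05 against 0.15 in controls, and the difference was 0.09 ± 0.09 (limma SE, 95% interval -0.11 to 0.28, adjusted p = 0.714). It was 0.15 without control replicate 1 and 0.03 without control replicate 3. Kera, which encodes keratocan of the corneal stroma, lay between 4.03 and 4.35 in all hearts, just above the filter at 3.80, with a difference of 0.12 ± 0.09 (limma SE, adjusted p = 0.604), or 0.08 without knockout replicate 4. Prelp and Fmod are direct neighbours in the genome, and relative to their own means they differed by 1.53 in knockout replicate 4. Nearly all of that lay in Fmod, which was 1.55 above its own mean in that heart, with Prelp 0.02 above its own. Both genes had the same 4 hearts highest.

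Ogn, of class III, encodes osteoglycin, also called mimecan, a secreted protein of connective tissue and bone. Controls were at 10.41, 9.39, 9.13 and 9.67 and knockouts at 10.45, 10.14, 9.55 and 10.47 in replicate order. Control replicate 1 again lay with knockout replicates 1 and 4, and knockout replicate 3 lay between control replicates 2 and 4. The difference was 0.50 ± 0.28 (limma SE, 95% interval -0.11 to 1.12, adjusted p = 0.505; exact two-sided permutation p = 0.229). Without control replicate 1 it was 0.76 and without control replicate 3 it was 0.33, and without knockout replicates 1 and 4 together it was 0.20. Chad, of class IV, encodes chondroadherin, a cartilage protein that binds integrins. Its signals were 3.39 to 3.63 in controls and 3.54 to 3.95 in knockouts, with a mean of 3.58 under the filter, so no level was read from it.

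**Figure D2:**
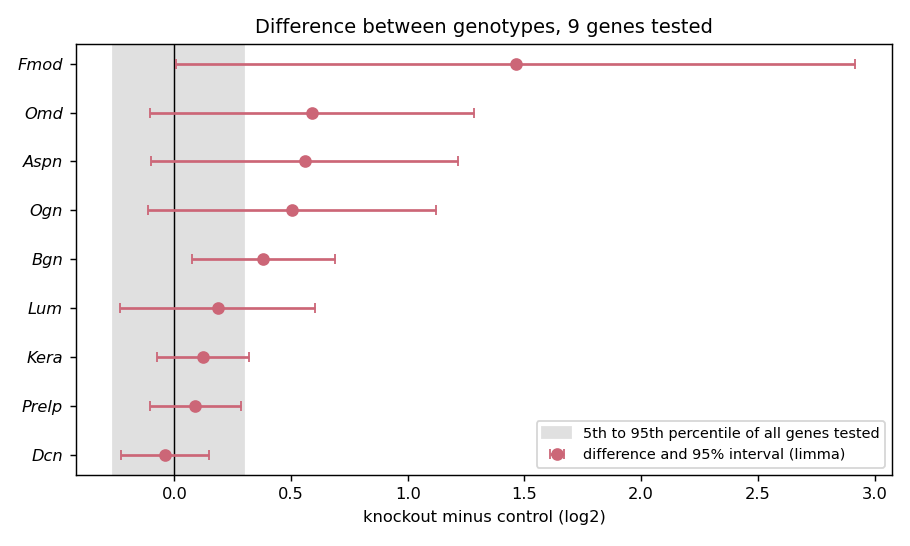
Knockout minus control (log2, horizontal axis) for the 9 genes tested, with limma's 95% intervals; the grey band holds the 5th to 95th percentile of the differences of all 15086 genes tested, from -0.26 to 0.30. Only the intervals of Bgn and Fmod lie above 0, before any adjustment for the number of genes, and the intervals of Fmod, Omd, Aspn and Ogn are the widest.

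The hearts fell in a like order in most members. In 7 of the 9 tested members (Bgn, Lum, Fmod, Ogn, Aspn, Prelp and Omd) the 4 highest hearts were control replicate 1 and knockout replicates 1, 2 and 4. How many of all genes tested had the same 4 hearts highest was not counted, so this is not shown to be particular to the family. The step from the fourth to the fifth highest heart was 1.18 in Fmod, 0.55 in Aspn, 0.51 in Omd, 0.47 in Ogn, 0.28 in Lum and 0.17 in Bgn, but 0.0072 in Prelp. Control replicate 2 was among the 4 highest hearts in 0 of the 9 members, control replicates 3 and 4 and knockout replicate 3 in 1 each, and knockout replicate 4 in all 9. Control replicate 1 was the highest of all hearts in 3 members (Dcn, Lum and Prelp) and the lowest in 1 (Kera). The difference between genotypes made up 25.8% of the variation of Ogn over the hearts, 27.1% of that of Aspn, 27.1% of that of Omd and 9.82% of that of Lum, against 48.8% of that of Bgn and 88.1% of that of Cited4.

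**Figure D3:**
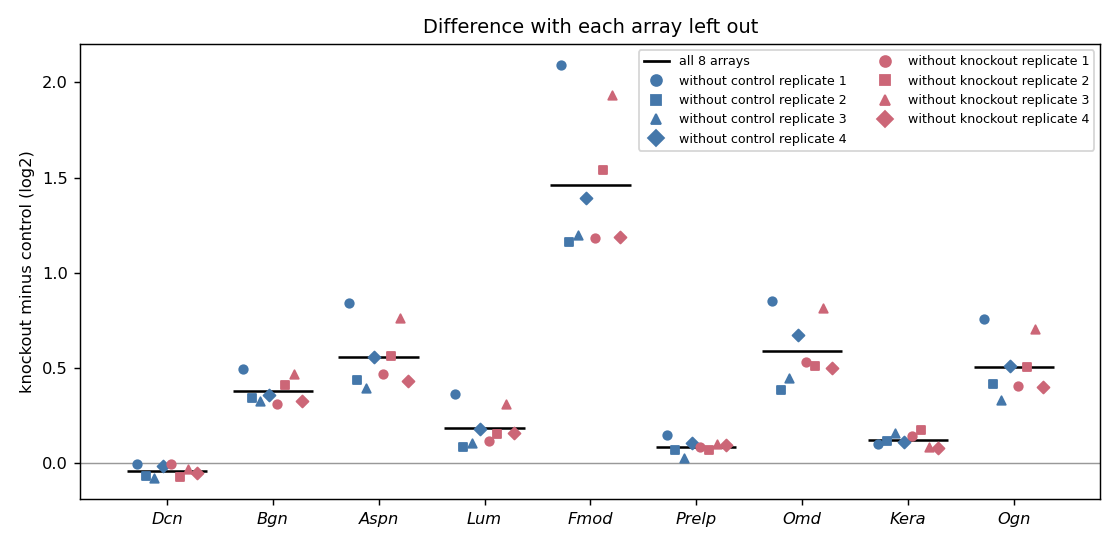
Knockout minus control (log2, vertical axis) for the 9 genes tested with all 8 arrays (black lines) and with each array left out (blue, a control left out; red, a knockout left out; the shape gives the replicate). Differences of Fmod, Aspn, Omd, Ogn, Lum and Bgn are highest without control replicate 1 and next highest without knockout replicate 3, and the sign is kept in all 9 genes.

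Likeness of 2 genes was measured as the root mean square difference (log2) between their values over the 8 hearts, each taken relative to its own mean. Among the 15086 genes tested, the gene most like Ogn was Aspn and the gene most like Aspn was Ogn, at 0.06, and in no heart did their deviations differ by more than 0.13. Omd, which lies between them in the genome, also had Aspn as its most like gene, at 0.17. In the other direction, Omd came 9th in likeness to Aspn and 31st in likeness to Ogn. Ecm2, the fourth gene of that cluster and a member of the wider family, had values of 7.71, 6.94, 6.97 and 7.40 in controls and 7.66, 7.75, 6.97 and 7.62 in knockouts, in replicate order, with the same 4 hearts highest. After each other, Ogn and Aspn were most like Clu (0.11 and 0.13), which encodes the secreted chaperone clusterin. The third were Frzb, a secreted Wnt antagonist (0.12 from Ogn), and Fxyd6, a regulator of the sodium pump (0.13 from Aspn). Omd was next closest to Ctsk, which encodes the collagen-degrading protease cathepsin K, at 0.18, and to Cpxm1, of the carboxypeptidase family, also at 0.18. These values rest on 8 arrays that share 1 normalization and are given without a test.

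Fmod was most like Col12a1, whose collagen sits on the surface of fibrils, at 0.20. Comp, which encodes a matrix protein of cartilage and tendon, followed at 0.22 and C1qtnf3, which encodes a secreted C1q-like protein, at 0.26. Col12a1 was at 7.58, 5.30, 5.35 and 5.84 in controls and at 8.32, 7.11, 6.42 and 8.45 in knockouts, again with control replicate 1 above knockout replicates 2 and 3. Comp, which is also on the list of activated fibroblast markers, was at 7.41 in control replicate 1 and at 4.89 to 5.57 in the other controls. None of the 3 passed the test (adjusted p from 0.421 to 0.540 in limma over all genes).

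**Figure D4:**
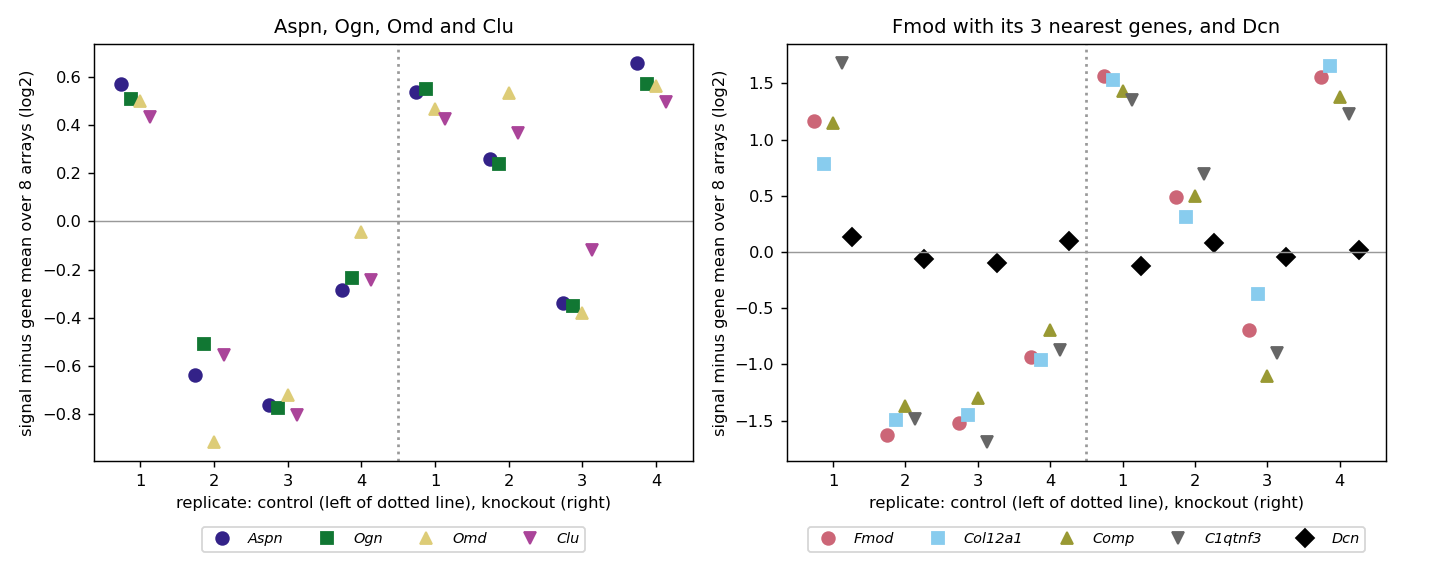
Signal of each gene minus its own mean over the 8 arrays (log2, vertical axis) by replicate, with controls left and knockouts right of the dotted line. Left, Aspn and Ogn stay within 0.13 of each other in every heart and Omd and Clu follow them more loosely; right, Fmod, Col12a1, Comp and C1qtnf3 span between 2.80 and 3.37 while Dcn stays within 0.27.

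Of the wider family, 8 further genes were listed, 7 were measured and 4 passed the filter. In these 4, 1 mean was higher and 3 were lower in the knockout, 0 passed the test and 0 had an unadjusted p under 0.05 with limma. Ecm2 differed by 0.24 ± 0.21, Optc, which encodes opticin of the eye, by -0.12 ± 0.19 and Podn, which encodes podocan, by -0.07 ± 0.13 (limma SE). The median of the 4 was -0.04, with no stable sign: it was 0.07 without control replicate 4, 0.03 without knockout replicate 1, -0.09 without control replicate 2 and 0.09 with the low-signal filter raised to the 60th percentile.

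Enzymes that build chondroitin, dermatan and keratan sulfate chains had a median difference of 0.07. Of 26 tested, 16 had a higher and 10 a lower mean in the knockout, where 51.2% of all genes tested had a higher mean. Of the 26, 0 passed the test and 4 had an unadjusted p under 0.05, all higher, against 5.64% of all genes. Dse and Chst14, which make dermatan sulfate from chondroitin sulfate, differed by 0.38 ± 0.16 and 0.23 ± 0.10, and Chst2, a sulfotransferase, by 0.25 ± 0.11 (limma SE, adjusted p from 0.440 to 0.444). Dse was at 6.67 in control replicate 1, above 6.43 and 6.45 in knockout replicates 2 and 3. The median of the list was 0.02 without knockout replicate 1 and 0.03 without control replicate 4.

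Collagens to which these proteins bind had a higher mean in the knockout in 11 of 12 genes, with a median of 0.61. Over all genes tested 51.2% had a higher mean. Of these collagens 0 passed the test and 7 had an unadjusted p under 0.05, all higher, where 5.64% of all genes were higher at that level. The median ran from 0.44 (without knockout replicate 1) to 0.82 (without control replicate 1) with 1 array left out, and it was 0.23 without knockout replicates 1 and 4 together. Col5a1, of the collagen that starts fibrils, was at 7.31, 6.87, 6.69 and 6.93 in controls and at 8.02, 7.41, 7.18 and 7.56 in knockouts. Its values overlapped through control replicate 1 alone, and it differed by 0.59 ± 0.18 (limma SE, adjusted p = 0.421). Col6a2, of microfibrillar collagen, differed by 0.39 ± 0.13 and Col12a1 by 1.56 ± 0.56 (limma SE, adjusted p = 0.421 for both).

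Growth factors and receptors that members of the family bind, 21 tested, had 15 higher and 6 lower means (median 0.24). With limma 0 passed, while 8 higher and 1 lower gene had an unadjusted p under 0.05. Over all genes tested 51.2% had a higher mean, and 5.64% were higher and 5.61% lower at that level. Tgfb2, a TGF-beta ligand, differed by 0.87 ± 0.23 and Ccn2, which encodes connective tissue growth factor, by 1.01 ± 0.28 without overlap of the groups, from 8.48 to 9.29 in controls and from 9.30 to 10.44 in knockouts. Cd44, the hyaluronan receptor, differed by 0.38 ± 0.12 (limma SE, adjusted p = 0.421 for each of the 3). Tlr2 and Tlr4, receptors through which free biglycan signals, differed by 0.24 ± 0.14 and -0.03 ± 0.07 (limma SE, both chosen after their values were seen).

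Proteases that process these proteins or their collagen partners numbered 14 tested, with 9 higher and 5 lower means and a median of 0.23. Pcolce, which enhances procollagen cleavage, differed by 0.43 ± 0.12 without overlap, from 7.08 to 7.50 in controls and from 7.58 to 7.93 in knockouts. Adamts4, a proteoglycan-cleaving protease, differed by 0.30 ± 0.12 and Bmp1, which trims probiglycan and procollagen, by 0.35 ± 0.17 (limma SE, adjusted p from 0.421 to 0.473 for the 3). In this list 0 passed and 2 had an unadjusted p under 0.05, both higher. Over all genes tested 51.2% had a higher mean and 5.64% were higher at that level. The median of the list was 0.11 without control replicate 1, 0.12 without knockout replicate 3 and 0.06 without knockout replicates 1 and 4 together.

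Proteoglycans of other families gave 18 higher and 3 lower means of 21 tested, with a median of 0.16. None passed (0), and 1 was higher and 2 were lower at an unadjusted p under 0.05. Over all genes tested 51.2% had a higher mean, and 5.64% were higher and 5.61% lower at that level. Gpc1, which encodes the membrane proteoglycan glypican-1, was at 9.03 to 9.12 in controls and at 8.56 to 8.90 in knockouts, a difference of -0.34 ± 0.09 without overlap (limma SE, adjusted p = 0.421). Cspg4 differed by 0.31 ± 0.13 and Tgfbr3, which encodes betaglycan, by -0.20 ± 0.09 (limma SE, adjusted p = 0.438 and 0.444).

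Cell type markers also varied across the hearts. Activated fibroblast markers (10 of 10 tested) had list means of 7.64 to 8.88 in controls and of 8.15 to 9.41 in knockouts, and the 4 hearts with the highest means, control replicate 1 (8.88) and knockout replicates 1, 2 and 4 (9.34, 8.52 and 9.41), were the 4 that were highest in Fmod, Ogn, Aspn, Omd, Lum and Bgn. The same 4 hearts had the highest means of smooth muscle and great vessel markers (7.56 in control replicate 1 and 8.00, 7.38 and 7.68 in knockout replicates 1, 2 and 4, against at most 7.13 in the others), of tendon-like markers (6.10, 6.14, 5.95 and 6.48, against at most 5.90) and of atrial markers (5.34, 5.10, 7.04 and 5.16, against at most 4.91). Single genes of these lists did not all follow the list means. Mfap4 of the smooth muscle and great vessel list had the same 4 hearts highest, but Smtn was lowest of all in knockout replicate 4 (7.76). Acta2 of the activated fibroblast list was lowest in knockout replicate 2 (9.48). Of the atrial list, Dkk3 had the same 4 hearts highest. Stard10 of that list was lower in knockout replicates 1 and 4 (5.76 and 5.58) than in any control. Thbs4 is on both the activated fibroblast and the tendon-like list. Resting fibroblast markers (9 of 10 tested) had list means of 7.97 to 8.22 in controls and of 7.98 to 8.28 in knockouts. Genes of that list went both ways: 5 had a higher and 4 a lower mean in the knockout, where 51.2% of all genes tested had a higher one. Mfap5 differed by 0.43 ± 0.12, Dpt by 0.06 ± 0.11 and Gsn by -0.45 ± 0.21 (limma SE, adjusted p = 0.421, 0.858 and 0.462). The ranges that follow are also of list means. Smooth muscle and great vessel markers (8 of 8) ranged from 6.83 to 7.56 and from 6.97 to 8.00, tendon-like markers (4 of 5, Kera among them) from 5.42 to 6.10 and from 5.90 to 6.48, and those of ventricular cardiomyocytes (8 of 8) from 10.92 to 11.05 and from 10.57 to 11.01. Of the 8 ventricular cardiomyocyte genes, 0 passed the test and 4 had an unadjusted p under 0.05 with limma, all lower. The groups did not overlap in 1 of the 8, also lower. Over all genes tested, 5.61% were lower at that p and 2.90% were lower without overlap. Valve and cartilage-like markers (10 of 12, with Hapln1 and Matn3 under the filter) had list means of 4.89 to 5.15 over all hearts. Single genes of that list varied more: Sox9 ran from 5.85 in control replicate 4 to 7.91 in knockout replicate 1. Cytl1 ran from 6.19 in knockout replicate 3 to 7.06 in control replicate 4, and Col9a2 from 6.03 to 6.32. Markers of epicardium and mesothelium (6 of 10, with Msln, Krt19, Muc16 and Lrrn4 under the filter) ranged from 5.41 to 5.57 and from 5.51 to 5.79. For macrophages (8 of 8) the means were 8.08 to 8.29 and 8.12 to 8.50, for endothelium (8 of 8) 8.22 to 8.40 and 8.14 to 8.52, and for the 1 erythroid gene tested of 4 they were 4.13 to 4.63 and 4.35 to 4.62. The atrial list, with Bmp10 under the filter, is given above, and without knockout replicate 2, its highest heart, Fmod differed by 1.54, Ogn by 0.51 and Aspn by 0.56. The part of these cell types in the differences of the members was not tested, and in RNA of whole tissue more cells of a type and more RNA per cell cannot be told apart.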

How the data were processed

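Per the labels' protocols, total RNA of frozen hearts was biotin-labelled and hybridised to Affymetrix arrays. Values of 41345 probe sets on 8 arrays were deposited by the authors as log2 intensities. The tools were RMA (which corrects background, equalises quantiles and summarises probe sets) and limma, per the submitters' processing notes, which give no versions. Quantile normalization hides a shift of all genes together. The sources used here name no array batch, and the number of arrays limits the precision.

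By the platform annotation 23521 probe sets had 1 gene symbol, 1814 had several and 16010 had none; 23328 took their symbol from RefSeq by Entrez identifier. Per gene the probe set with the highest mean was used (22180 genes). Tested were the 15086 genes with a mean of at least 3.80, the 40th percentile over probe sets.

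Knockout minus control was fitted with limma 3.58.1 in R 4.3.3 (lmFit, eBayes, no trend) with Benjamini-Hochberg adjustment over all genes tested and a threshold of 0.05. Single members also had an exact two-sided permutation test. The limma step was tested on simulated data in which genes varied independently, which checks the code and does not measure its power in these hearts. The members and lists were chosen with earlier results of these data known, so list counts and medians carry no test. Named genes were the 10 members, Cited4, the 3 genes most like each member that spanned at least 1 log2, up to 3 genes with the smallest p per pathway list and the 3 brightest markers per cell type. Protein sequences were not used here. The alternatives were other filters, normalizations, probe set rules, variance models, array weights, a replicate block, a threshold of 0.1 and leaving out arrays.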

Additional observations from a re-analysis of the deposited data

Results flagged for a closer look

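Among the 132 groups of 4 hearts checked (66 genes in both genotypes), 4 held a heart whose gap to the nearest other heart, as a share of the group's range, was above Dixon's 95% critical value, and chance flags about 1 in 20 such groups. Omd in knockout replicate 3 was at 4.38 against 5.23 in the nearest knockout heart, a gap of 0.895 of the range. Its genomic neighbour Ecm2 had the same heart low, at 6.97 against 7.62 (0.839 of the range). Nr2f2, an atrial and venous transcription factor gene, was at 5.52 against 6.04 in knockout replicate 3 (0.836 of the range). Frzb, one of the genes most like Ogn, was at 8.01 in control replicate 1 against 7.07 in the nearest control heart (0.876 of the range). In each of these groups the remaining 3 hearts lay close together.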

How the results depend on the processing

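Under 19 alternatives, no member was called and 0 genes over all genes tested were called with limma; the signs of Bgn, Lum, Fmod, Ogn, Aspn, Prelp, Omd and Kera were kept wherever they were tested. Dcn turned from -0.04 to 0.0116 after a further quantile normalization. Adjusted p-values over the alternatives ran from 0.156 to 0.988 for Fmod and from 0.165 to 0.988 for Bgn. The count of members higher at an unadjusted p under 0.05, 2 with all arrays, was 1 with the low-signal filter raised to the 60th percentile, with the mean of probe sets and with trend and robust estimation, 3 with array weights (Bgn, Fmod and Aspn), 0 with the unmoderated test, 0 to 6 with 1 array left out, and 0 without knockout replicates 1 and 4 together, which were named because earlier results of these data were known; the cause was not tested. Without control replicate 1 the groups did not overlap in 2 members, Bgn and Fmod, and with 1 array left out this count was 0 to 2. The shares of all genes without overlap, given in the results, are those of all arrays. Such shares were not counted with a heart left out, so the count of 2 has no share over all genes beside it. The median difference of the members was 0.20 to 0.50. With 1 array left out the chain assembly list had a median of 0.0212 to 0.10. Without knockout replicates 1 and 4 together the medians were 0.23 for collagen partners (0.61 with all arrays), -0.0032 for chain assembly, 0.10 for ligands and receptors and 0.0592 for proteases. The labels do not say whether same-numbered hearts were paired. Deviations of same-numbered hearts from their group means correlated at 0.36, 0.01, 0.28 and -0.03 over genes. Hearts of different numbers were not compared in this way, so pairing cannot be judged from these values. The limma SE of Fmod was 0.65 without and 0.33 with the replicate block. With the replicate block, 5 members (Bgn, Fmod, Ogn, Aspn and Omd) had an unadjusted p under 0.05 and 0 were called, with a smallest adjusted p of 0.156. The share of all genes at that unadjusted p was not counted under any of the alternatives. The counts of 5 here and of 3 with array weights therefore have no share over all genes beside them. The low signals of Omd, Kera and Chad limit what can be read from them.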
